A study of Mus musculus with 3 samples.

Results

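The 10 genes described here form the core of the YAP and TEAD pathway and were chosen by symbol among the 46603 Ensembl genes counted in β-actin knockout mouse embryonic fibroblasts that express NLS-tagged β-actin (KO-actin cells). They are the effectors Yap1 and Wwtr1 (the gene of TAZ), the transcription factors Tead1, Tead2, Tead3 and Tead4, the kinases Lats1 and Lats2, and the targets Ccn2 (formerly Ctgf) and Ccn1 (formerly Cyr61). All 10 symbols matched 1 row each. RNA-Seq of polyadenylated RNA was carried out on 3 libraries of these cells, which carry the β-actin knockout and the tagged β-actin alike, so that the data hold 1 condition and no contrast between conditions. No drug, time course, age or number of clones is given in the labels, and the promoter that drives the tagged β-actin is not given in the sources used here.

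YAP and TAZ are coactivators without a DNA-binding domain of their own. When the LATS kinases are inactive, YAP and TAZ enter the nucleus and bind TEAD proteins, which recognise DNA through their TEA domain. Phosphorylation by LATS1 or LATS2 keeps YAP and TAZ in the cytoplasm, where they bind 14-3-3 proteins, or marks them for degradation. In fibroblasts the pathway is known to respond to the tension of the actin cytoskeleton and to serum, and the secreted matricellular proteins CCN1 (CYR61) and CCN2 (CTGF) are its customary readouts. These steps act largely on proteins, which RNA counts do not measure.

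Read totals were 49932446, 49587453 and 44383636 for replicates 1 to 3. Each member had at least 482 counts in each library, and intervals from counts of this size cover counting error only. The labels do not say whether the libraries came from separate cultures, so that their spread may be technical. Every pair of libraries differed by more than sampling noise, and each was kept as 1 sample. The chi-square divided by its degrees of freedom was 3.72 between replicates 1 and 3, but 11.1 and 10.6 when replicate 2 was set against replicate 1 or replicate 3. Replicate 2 thus stood apart from the others. Actb had 1078, 1111 and 1066 CPM (reads of a gene per megaread of the scaled library), which cannot check the labels because the cells express tagged β-actin. Of the fibroblast markers 11 of 12 were above the floor of 3 counts in every library, led by Vim at 962 CPM per kilobase, Col1a1 at 618 and Fn1 at 306, and Lum was at 0 counts in all 3. Only 10 of the 12 had a mean of at least 1 CPM. Thy1 had 41, 29 and 49 counts, and Pdgfra, with 234, 244 and 235, lay at 0.495 CPM per kilobase, both picked out after their values were seen. The summed CPM of the 12 ranged from 12551 to 13498, against 38.6 to 40.7 for 7 epithelial markers, 4.77 to 5.49 for 7 endothelial markers and 11.2 to 12.9 for 6 blood markers. Within these lists Epcam, Cdh5, Erg, Tie1 and Ptprc had at most 1 count in any library. Above the floor in every library were 4 of the 7 epithelial, 3 of the 7 endothelial and 3 of the 6 blood markers. These included Krt18, with 1833, 1915 and 1703 counts, Krt8, with 74, 58 and 79, and Cd74, with 560, 606 and 458. Vwf, with 116, 145 and 127, and Kdr, with 113, 110 and 79, were also among them. The part of such RNA in the values of the members was not tested. Of 6 smooth muscle markers 5 exceeded 3 counts throughout, and the 6 had a summed CPM of 1228 to 1246, led by Tagln, Cnn1 and Lmod1, while Myh11 had 3, 7 and 6 counts. The values come from bulk RNA, in which fewer cells of a type and less RNA per cell cannot be told apart.

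TEAD proteins bind the letters CATTCC, or GGAATG on the other strand, and these were searched in the 250 bases before each RefSeq start site on GRCm38.p6. A promoter entry was found for 7 of the 10 members, Yap1, Wwtr1, Tead2, Tead3, Lats1, Lats2 and Ccn1, and 4 of the 7 held the letters on either strand. The share was 14.4% over all 27025 genes with an entry and 12.8% over 9918 of them that were expressed here. Windows of 30 bases around the match are shown for these 4 genes because they let the flanks be compared, with the motif in capitals, each read 5′ to 3′ on the strand of its gene (the minus strand in each case) from the most upstream RefSeq start.
Yap1, chr9:8004720-8004749: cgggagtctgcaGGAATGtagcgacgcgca
Wwtr1, chr3:57576029-57576058: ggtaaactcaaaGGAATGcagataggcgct
Tead3, chr17:28350970-28350999: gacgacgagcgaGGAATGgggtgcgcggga
Ccn1, chr3:145650071-145650100: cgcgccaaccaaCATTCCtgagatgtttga

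The motif began 141 bases before the start of Yap1, 136 before that of Wwtr1, 182 before that of Tead3 and 103 before that of Ccn1. A further Tead3 start site held 2 matches in its own window. Tead2, Lats1 and Lats2 held none in these windows, and the match is a description of letters and not of a bound site. The 250 bases before the Ccn1 start are given in full because Ccn1 was the most abundant member.
Ccn1, chr3:145649986-145650235, minus strand: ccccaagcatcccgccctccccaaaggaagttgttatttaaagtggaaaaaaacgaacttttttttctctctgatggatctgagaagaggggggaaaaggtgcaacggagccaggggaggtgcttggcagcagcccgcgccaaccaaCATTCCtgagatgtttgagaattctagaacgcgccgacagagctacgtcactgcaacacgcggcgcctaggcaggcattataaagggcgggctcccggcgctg

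Levels between genes were compared as CPM per kilobase of all annotated exons of a gene, since a long mRNA yields more reads than a short one at the same abundance. Positions and lengths are those of GENCODE M21 on GRCm38. All 10 members were expressed in every library, and the highest level, that of Ccn1, was 222 ± 23.0 times the lowest, that of Tead4 (SD, n = 3). That range was 124-fold in plain CPM and 106-fold per kilobase of the median coding transcript. The order of mean levels was Ccn1, Ccn2, Wwtr1, Tead2, Tead1, Yap1, Lats1, Lats2, Tead3 and Tead4. Of the 10, 8 lay above the median of 5.88 CPM per kilobase over the 13770 expressed genes with a length, and Tead3 and Tead4 lay below it. The plot of levels by gene shows how tight the libraries were next to the distances between most genes.

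**Figure D1:**
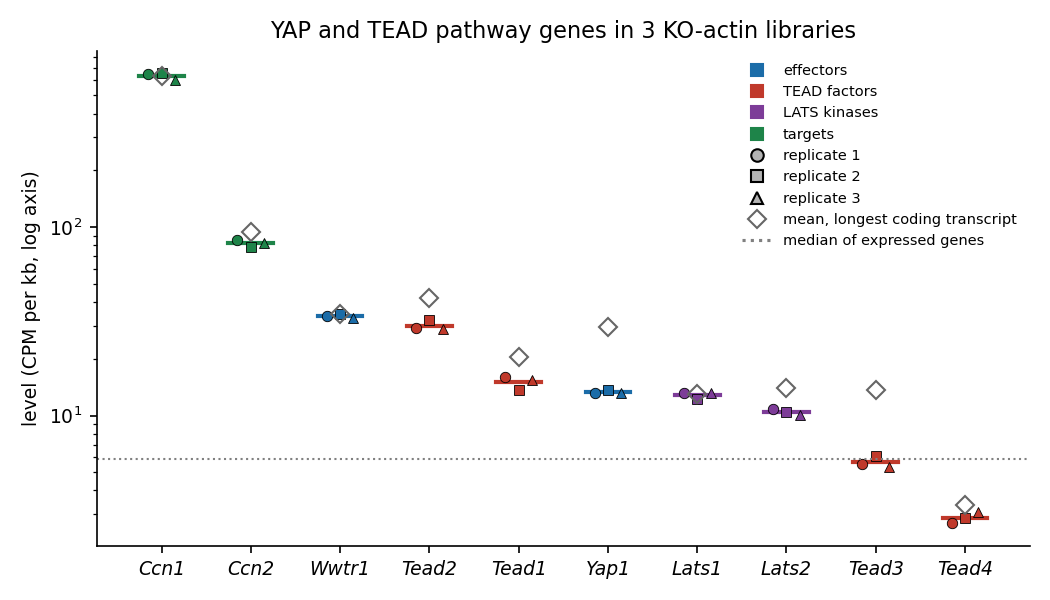
Level of each member in CPM per kilobase of exon (log axis) in replicates 1 to 3 (circle, square, triangle), with the mean as a bar, coloured by role; diamonds give the mean when the longest coding transcript is used as the length, and the dotted line is the median of expressed genes, 5.88. Ccn1 (634) and Ccn2 (82.1) sit above the other 8 members, and the diamonds of Yap1 (29.6) and Tead3 (13.7) lie far above their bars (13.3 and 5.66).

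The targets were the most abundant members. Ccn1, on chromosome 3 from 145646976 to 145649981 (ENSMUSG00000028195, minus strand), encodes a secreted matricellular protein that binds integrins. The libraries gave 1303, 1323 and 1213 CPM, with a mean of 1279.5 ± 58.8 (SD, n = 3) and replicate 3 lowest. Per kilobase this was 634 ± 29.1 (SD, n = 3), rank 30 among the 13770 expressed genes. Ccn2, on chromosome 10 from 24595442 to 24598683 (ENSMUSG00000019997, plus strand), encodes the related protein CTGF, a matricellular factor of fibrosis and wound repair. It had 245, 225 and 234 CPM, a mean of 235 ± 10.2 (SD, n = 3), and 82.1 ± 3.56 CPM per kilobase (SD, n = 3), rank 585. Here replicate 1 was highest and replicate 2 lowest. Per kilobase Ccn1 exceeded Ccn2 in 3 of 3 libraries, by 7.53-fold, 8.34-fold and 7.33-fold, and the ranges of the genes did not overlap. Of the exonic bases of Ccn2, 23.2% are also exonic in Gm15270 on the opposite strand, which had 10, 6 and 5 counts, and whether the counting used the strand is not given in the sources used here.

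The effectors were expressed at unlike levels. Wwtr1, on chromosome 3 from 57455649 to 57575910 (ENSMUSG00000027803, minus strand), encodes TAZ. It had 162, 165 and 158 CPM, a mean of 162 ± 3.81 (SD, n = 3), or 33.8 ± 0.798 CPM per kilobase (SD, n = 3). Yap1, on chromosome 9 from 7931999 to 8004596 (ENSMUSG00000053110, minus strand), had 122, 126 and 122 CPM, a mean of 124 ± 2.25 (SD, n = 3), or 13.3 ± 0.243 CPM per kilobase (SD, n = 3). Yap1 had the smallest coefficient of variation of the 10 members, 1.82%. Per kilobase of all exons Wwtr1 was 2.53 ± 0.0378 times Yap1 (SD, n = 3), in 3 of 3 libraries. That size rests on the length used. The union of annotated Yap1 exons is 9257 bases long and its longest coding transcript 4171, whereas the lengths for Wwtr1 are 4779 and 4697 bases. With the longest coding transcript the ratio of Yap1 to Wwtr1 was 0.861 in place of 0.395, and without any length scaling 0.765, so that Wwtr1 stayed above Yap1 under each.

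The TEAD genes differed among themselves by more than the libraries did. They encode closely related proteins, and the coding sequences shown next are the 90 aligned bases with the most positions shared by all 4 genes, at the start of the stretch encoding the TEA domain. They are printed to show how alike the 4 genes are, since reads from a long identical stretch could be counted on a relative. Capitals mark bases that differ from Tead1, and 65 of the 90 positions were identical in all 4.
Tead1, coding bases 43 to 132: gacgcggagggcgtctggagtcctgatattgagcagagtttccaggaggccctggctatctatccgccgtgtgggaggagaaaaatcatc
Tead2, coding bases 118 to 207: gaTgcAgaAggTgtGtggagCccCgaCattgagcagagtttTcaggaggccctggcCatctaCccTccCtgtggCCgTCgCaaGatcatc
Tead3, coding bases 88 to 177: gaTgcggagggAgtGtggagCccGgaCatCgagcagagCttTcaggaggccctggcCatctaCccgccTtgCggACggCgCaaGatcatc
Tead4, coding bases 91 to 180: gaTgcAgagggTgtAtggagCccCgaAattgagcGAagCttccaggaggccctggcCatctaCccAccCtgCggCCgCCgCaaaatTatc

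Identity of the aligned coding sequences ran from 66.2% for Tead1 and Tead2 to 71.4% for Tead3 and Tead4. The longest identical run was 59 bases, between Tead3 and Tead4, and at most 35 bases in the other pairs. Accordingly 10 of 3027 windows of 50 bases in the Tead4 mRNA, 0.330%, also occur in Tead3, and 0% of its windows of 100 bases do. For Tead1, 0.292% of the 50-base windows occur in other genes, and for Tead2 0%.

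Tead2, on chromosome 7 from 45215753 to 45233644 (ENSMUSG00000030796, plus strand), had 29.2, 32.0 and 28.8 CPM per kilobase, a mean of 29.98 ± 1.73 (SD, n = 3). Tead1, on the same chromosome from 112679318 to 112906807 (ENSMUSG00000055320, plus strand), had 16.0, 13.7 and 15.4 CPM per kilobase, a mean of 15.03 ± 1.18 (SD, n = 3). Replicate 2 was the highest library for Tead2 and the lowest for Tead1, and the ranges of the genes did not overlap. Tead3, on chromosome 17 from 28331671 to 28350817 (ENSMUSG00000002249, minus strand), had 5.52, 6.13 and 5.32 CPM per kilobase, a mean of 5.66 ± 0.421 (SD, n = 3). Tead4, on chromosome 6 from 128224288 to 128300823 (ENSMUSG00000030353, minus strand), had 2.68, 2.87 and 3.06 CPM per kilobase, a mean of 2.87 ± 0.190 (SD, n = 3), the lowest level of the 10 members at the 35.1 percentile of expressed genes. Tead4 was the only TEAD gene with replicate 3 highest.

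Of the summed level of the 4 TEAD genes per kilobase of exon, Tead2 held 56.0% ± 2.16, Tead1 28.1% ± 2.64, Tead3 10.6% ± 0.577 and Tead4 5.37% ± 0.414 (SD, n = 3 each). On the plain CPM scale the leading places changed hands, with Tead1 at 204 ± 16.0 CPM and Tead2 at 144 ± 8.30 CPM (SD, n = 3 each). Tead1 then held 51.5% and Tead2 36.3%. The exons of Tead1 cover 13570 bases, against 4788 for Tead2. Tead4 held the smallest share on each of the 4 scales tried, between 1.41% and 5.37%, as the plot of TEAD shares shows.

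**Figure D2:**
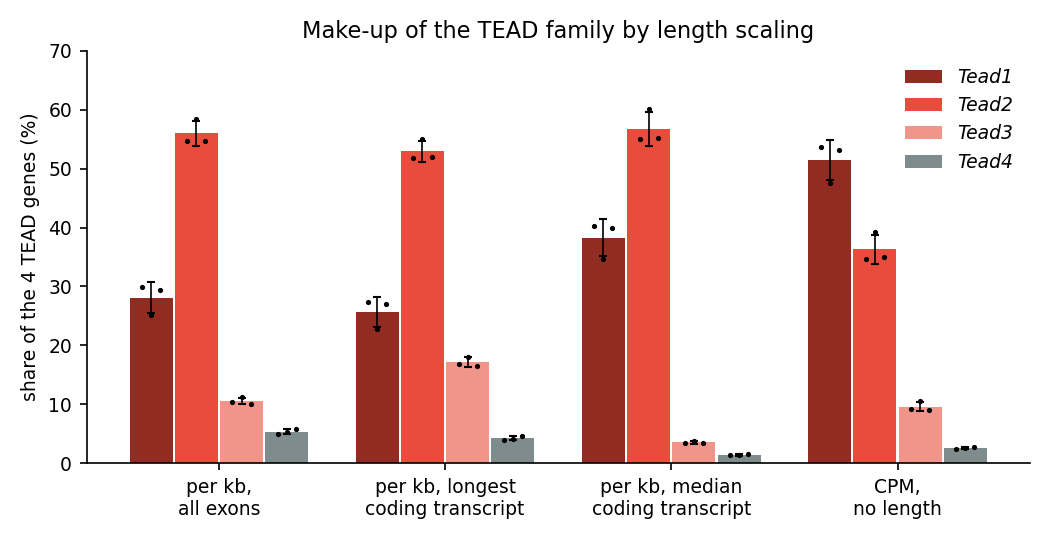
Share of each TEAD gene in the sum of the 4 (%), as the mean of 3 libraries with SD bars and the libraries as dots, under 4 choices of length scaling. Tead2 leads on the 3 scales per kilobase (53.0% to 56.8%) and Tead1 leads in CPM without a length (51.5%).

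Lats1 and Lats2 encode the kinases that phosphorylate YAP and TAZ. Lats1, on chromosome 10 from 7681214 to 7716460 (ENSMUSG00000040021, plus strand), had 95.6, 89.8 and 95.5 CPM, a mean of 93.6 ± 3.31 (SD, n = 3). Lats2, on chromosome 14 from 57689662 to 57758388 (ENSMUSG00000021959, minus strand), had 75.3, 72.8 and 70.3 CPM, a mean of 72.8 ± 2.52 (SD, n = 3). LATS2 is both a kinase of the pathway and a known product of its transcription. Per kilobase of exon the levels were 12.8 ± 0.454 for Lats1 and 10.4 ± 0.361 for Lats2 (SD, n = 3 each), so that Lats1 was 1.23 times Lats2 in 3 of 3 libraries. With the longest coding transcripts as lengths the order turned, at a ratio of 0.926. Moreover 56.5% of the 50-base windows of the Lats2 mRNA occur in Gm49361, an annotated gene on the same strand that has no row in the count files, so that any reads of it could have been counted on Lats2. No order of the kinases can be given on these grounds.

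By role, the summed levels were 716 ± 28.9 CPM per kilobase for the 2 targets, 53.5 ± 1.06 for the 4 TEAD genes, 47.2 ± 0.998 for the 2 effectors and 23.3 ± 0.586 for the 2 kinases (SD, n = 3 each). The targets were 15.2 ± 0.380 times the effectors, 13.4 ± 0.360 times the TEAD genes and 30.8 ± 1.41 times the kinases (SD, n = 3 each). The TEAD genes were 1.14 ± 0.00217 times the effectors and the effectors 2.03 ± 0.0797 times the kinases (SD, n = 3 each). The TEAD genes and the effectors kept their order in each library although single TEAD genes moved in opposite directions. These ratios rest on the length used. In plain CPM the effectors came to 0.188, the TEAD genes to 0.262 and the kinases to 0.110 of the targets, against 0.0659, 0.0749 and 0.0326 per kilobase of all exons. Per kilobase of the median coding transcript, which is only 592 bases long for Tead2 and 866 for Lats2, the TEAD genes came to 0.584 and the kinases to 0.146 of the targets. On that scale the effectors came to 0.152 of the TEAD genes and 0.611 of the kinases, so that the effectors and not the kinases were lowest. The targets were highest on each of the 4 scales.

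In all, 16 distinct pairs were compared (neighbours in the order, paralogues and role groups). The direction was the same in 3 of 3 libraries for each pair and the ranges did not overlap. The 9 neighbouring pairs were ordered by the mean levels in these same libraries, so that for them this is no independent check. An exact sign-flip permutation test, two-sided, gave p = 0.25 for each pair and 0.25 after Benjamini-Hochberg adjustment over the 16, the smallest p that 3 libraries allow. The neighbours Yap1 and Lats1 differed by a log2 ratio of 0.06 ± 0.08 (SD, n = 3), less than its own spread, and were not told apart. Tead1 and Yap1, at 0.17 ± 0.14 (SD, n = 3), lay barely beyond it. With the longest coding transcripts only 5 of the 9 neighbouring pairs kept their direction in every library, among them Ccn1 over Ccn2.

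Between libraries of the same condition, 8 of the 10 members varied beyond counting error by a chi-square test with Benjamini-Hochberg adjustment over the 13814 genes that reached 10 counts in each of the 3 libraries (adjusted p under 0.05). The background was 43.8% of all genes tested, and 55.3% of the 9127 genes with a mean CPM between those of Tead4 and Ccn1. The test finds smaller differences in genes with more counts. That range, from 10.3 to 1279.5 CPM, was wide and was not matched to the level of each member. An excess of the members over genes of like level was therefore not tested. Yap1 (adjusted p = 0.217) and Tead4 (adjusted p = 0.193) did not pass. Wwtr1 (adjusted p = 0.0369) and Lats2 (adjusted p = 0.0396) passed narrowly, and neither passed with total counts as library sizes. The differences were small, and in no member did the highest library exceed the lowest by over 1.5-fold, against a background of 3.8% of genes that passed the test and this limit. The widest was Tead1, with 217, 186 and 209 CPM, a range of 1.16-fold (adjusted p = 8.37e-26). The narrowest was Yap1 at 1.03-fold. The median coefficient of variation was 4.47% over the members and 5.56% over all genes tested. These medians were not matched for level, and counting error adds more to this coefficient in genes with fewer counts. This test compares libraries and not conditions.

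Without replicate 2, 3 of the 10 members varied, Ccn1, Ccn2 and Lats2, where the background was 12.5%. The deviation of replicate 2 moved with GC content, so that it was set beside that of genes with a GC content within 1 percentage point. Tead3, at 59.5% GC, was higher in replicate 2 by 0.18 on the log2 scale, where the median of genes of like GC content was 0.12. Tead2, at 57.9% GC, had 0.14 where that median was 0.10. Lats1, at 43.0% GC, had -0.09 where that median was also -0.09. Tead4, at 58.1% GC, had 0.00 where the median was 0.10, unlike Tead2 and Tead3. Tead1, at 46.5% GC, had -0.20 where the median was -0.05, and Wwtr1, at 43.9% GC, had 0.05 where it was -0.08. When the expected share of each library was set within 50 bins of GC content, 4 members varied, Ccn1, Ccn2, Tead1 and Wwtr1, at a background of 28.9%. The part of GC content in the other differences was not tested.

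**Figure D3:**
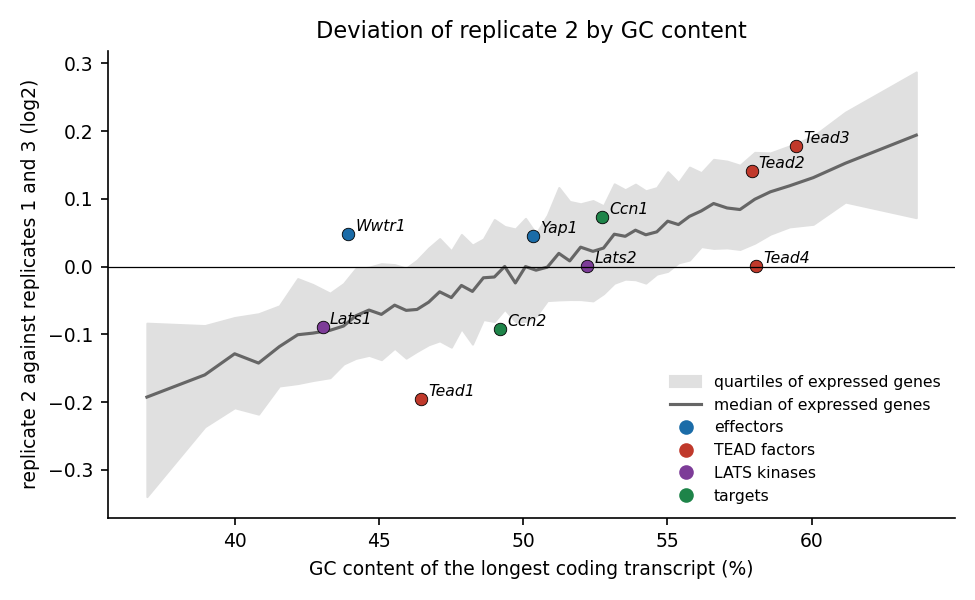
Log2 difference of replicate 2 from the geometric mean of replicates 1 and 3, against GC content (%), for the 10 members (points, by role) and for expressed genes (line, median in 50 bins; band, quartiles). Tead2 and Tead3 lie above 0 and Lats1 below 0 along with genes of like GC content, while Tead1 (-0.20), Ccn2 (-0.09) and Tead4 (0.00) lie below and Wwtr1 (0.05) above the band.

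The genes upstream of LATS were expressed as well. Of 22 upstream Hippo genes, 19 had a mean of at least 1 CPM. The highest per kilobase were Wwc1 (KIBRA, a scaffold that binds the LATS kinases) at 44.0, Mob1a, a LATS coactivator, at 40.7 and Map4k4, a kinase that can phosphorylate LATS, at 40.1. The atypical cadherins were uneven. Fat1 had 451, 433 and 469 CPM, Fat4 15.2, 14.1 and 17.2, and Dchs2 2.94, 2.21 and 2.63. These cadherins were picked out after their values were seen. Fat2 had 45, 15 and 28 counts, and was the only gene of these lists that varied beyond counting error with its highest library over 1.5 times its lowest. Fat3, with 2, 4 and 1 counts, and Dchs1, with 1, 6 and 3, were not above the floor of 3 counts in every library, and both were picked out after their values were seen. In the test between libraries 13 of 20 upstream genes passed, against the background of 43.8%, and 4 without replicate 2, against 12.5%. For this list and those that follow, no background limited to a range of level was computed.

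Of 17 genes whose products bind proteins of the pathway, 16 had a mean of at least 1 CPM. The highest were the 14-3-3 genes Ywhae at 321 CPM per kilobase, Ywhaz at 169 and Ywhab at 109.8. Vgll1, a TEAD cofactor of epithelia, had 0 counts in each library, which allows up to 0.0673 CPM in the smallest. The cofactors Vgll3 (13.25 CPM per kilobase) and Vgll4 (9.08) were above the median gene and Vgll2 (2.40) was below it. They were picked out after their values were seen. In this list 8 of 16 genes passed the test between libraries, close to the background of 43.8%, and 3 without replicate 2, where the background was 12.5%.

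Other genes known as targets of YAP and TAZ were unequal in level. All 21 of the list had a mean of at least 1 CPM, with a median of 49.3 CPM per kilobase against 5.88 over all expressed genes, and 15 of the 21 were above that gene median. The list was drawn up from textbook targets and with earlier results of these data known, and nothing particular to it was tested. The highest were Ankrd1, a nuclear ankyrin-repeat protein, at 404 CPM per kilobase and Thbs1 (thrombospondin-1) at 175. Ankrd1 had 1194, 1097 and 1204 CPM, below the 1303, 1323 and 1213 of Ccn1 in each library. Per kilobase the means of Ankrd1 and Ccn1 were 404 and 634. At the other end stood Nt5e with 83, 79 and 56 counts, Rbms3 with 136, 113 and 127 and Igfbp3 with 125, 127 and 100, named after their values were seen. Ptpn14 and Amotl2, themselves targets, are also in the list of binding partners. Between libraries 14 of 21 varied, at a background of 43.8%, and 6 without replicate 2, at one of 12.5%. These backgrounds cover genes of all levels, and the test finds smaller differences in genes with more counts. An excess over genes of like level was therefore not tested.

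Among the 6 CCN genes, which encode related matricellular proteins, 5 had a mean of at least 1 CPM. Ccn4 (formerly Wisp1) followed Ccn1 and Ccn2 with 38.5 CPM per kilobase. Ccn6, with 9, 10 and 19 counts, was the least abundant and was picked out after its values were seen. In this family 3 of 5 genes with enough counts varied between libraries, at a background of 43.8% of all genes.

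**Figure D4:**
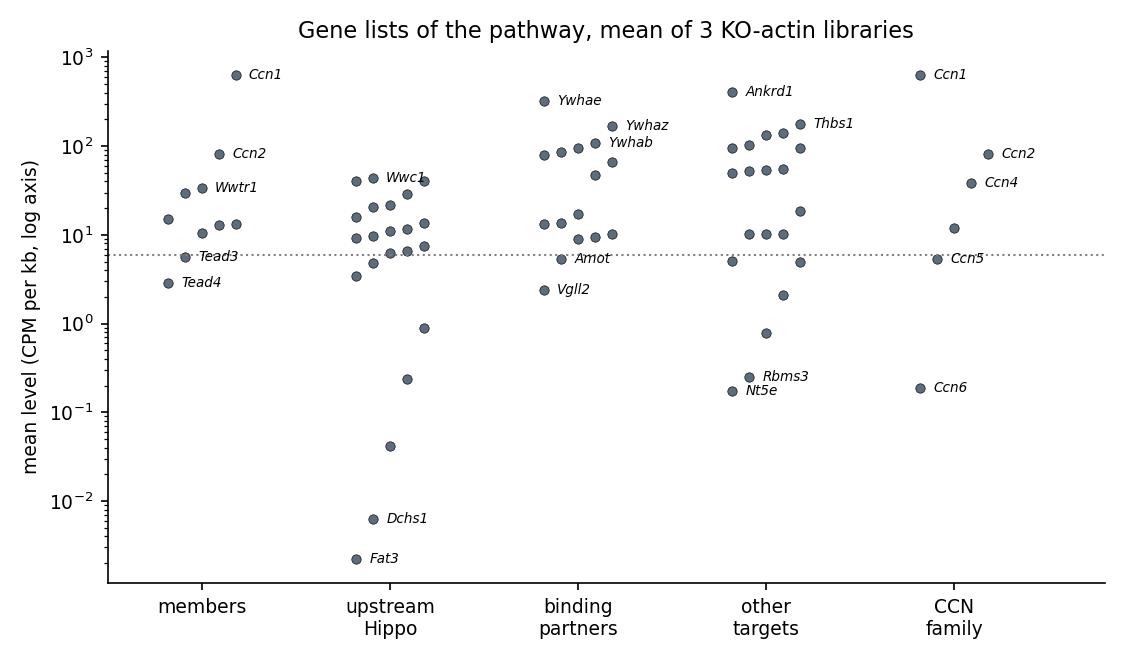
Mean level over 3 libraries (CPM per kilobase, log axis) of each gene of the members and of 4 lists of related genes, with the highest and lowest genes named and the median of expressed genes (5.88) dotted; Vgll1, at 0, cannot be drawn. The other targets reach from 0.175 (Nt5e) to 404 (Ankrd1), and the upstream genes from 0.00223 (Fat3) to 44.0 (Wwc1).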

How the data were processed

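For each of the 3 KO-actin libraries the authors deposited a table of whole-number read counts by Ensembl gene, not normalized, in which 0 columns belonged to other samples. The submitters' processing notes name Trimmomatic, FastQC, HISAT2 and HTSeq and the builds mm10 and GRCm38; the strand setting, annotation release and treatment of multiply matching reads are not given in the sources used here. They decide how overlapping and similar genes were counted. GENCODE M21 gave a symbol to 46005 of the 46603 identifiers.

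TMM factors from edgeR 4.0.16 (R 4.3.3), computed on genes reaching 10 counts in each library, scaled the totals. Size factors of DESeq2 1.42.0 or unscaled totals were tried in their place, as were no filter and a minimum of 100 counts, and each library was left out in turn. With 1 group, edgeR's quasi-likelihood test had no contrast to test. Each gene was instead tested against the scaled library sizes by a chi-square. On simulated counts for the 3 libraries (13814 genes, 200 changed in 1 library), it called 121 of the changed genes at 1.2-fold and 155 at 1.5-fold, with 9 and 11 calls among unchanged genes. The simulated counts held sampling noise only and no trend with GC content. They therefore do not give the rate of such calls in the real libraries, which differed by more than sampling noise. Ratios of CPM per kilobase were tested by exact sign-flip permutation (scipy 1.17.1). Coding sequences were aligned with MAFFT 7.526. Exon unions, the longest and the median coding transcript were used as lengths.

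The members and lists were chosen with earlier results of these data known. Named were the members, the 3 highest genes of each list, those at or under 3 counts in every library, and those varying with a range over 1.5-fold. The values of 1 gene that this rule names are not reported here. No genes of like pattern were sought, since 3 libraries of 1 condition hold no such pattern. Libraries of other cells were not analysed here.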

Additional observations from a re-analysis of the deposited data

How the results depend on the processing

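No paired analysis was possible because the 3 libraries share a single condition, so that no groups share replicate numbers. Ratios within a library do not depend on its scaling, but they do depend on the lengths. With the longest coding transcripts the log2 ratio of Lats1 to Lats2 was -0.11, of Wwtr1 to Tead2 -0.30 and of Tead1 to Yap1 -0.54, all reversed, 5 of 9 neighbouring pairs kept their order in every library, the highest member was 189.5 times the lowest, and Tead2, Tead3 and Tead4 held 53.0%, 17.1% and 4.21% of the TEAD sum. With median coding transcripts, which are 592 bases for Tead2 and 866 for Lats2, Lats1 to Lats2 was -1.91, effectors to kinases -0.71 and Wwtr1 to Tead2 -2.79, also reversed. The highest member was then 106 times the lowest, and Tead1, Tead3 and Tead4 held 38.3%, 3.53% and 1.41%. In plain CPM Tead2 to Tead1 reversed to -0.51, the range of members was 124-fold, and the TEAD shares were 51.5%, 36.3%, 9.60% and 2.61%. Tests of ratios could not pass a threshold in 3 libraries, so these values say nothing of significance.

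Members varying between libraries numbered 8, at a background of 43.8% of all genes. They also numbered 8 with DESeq2 size factors (background 43.9%) and with at least 100 counts (background 51.7%). With total counts (background 43.9%) or without a filter (background 25.9%) they numbered 6. Within bins of GC content, an alternative chosen after seeing the data, they numbered 4 (background 28.9%). Upstream genes then numbered 8 in place of 13, at the same background of 28.9%. Leaving out 1 replicate gave 3 to 7 members, 4 to 10 upstream genes, 3 to 6 binding partners and 6 to 11 other targets, lowest without replicate 2. The background was 32.9%, 12.5% and 34.1% of all genes without replicates 1, 2 and 3.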
